A study of Mus musculus with 6 samples.

Results

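The protocadherins are cell-adhesion proteins of the cadherin superfamily, and the 35 genes described here are those of 18194 measured genes whose symbol begins with Pcdh. They were taken by name from probe sets annotated to exactly 1 gene. A probe set is a group of short oligonucleotides on the array whose signals are combined into 1 value. Where a gene had several, the brightest by its mean signal on the 6 arrays stood for it, so signal level and not group chose among probe sets. The family was taken up with earlier results of these arrays known, Pcdhb22 being among the genes with the smallest p there, so its values are given as a description. Of the 35 genes, 22 belong to the beta cluster (Pcdhb1 to Pcdhb22) and 13 are other protocadherins. RNA came from cultures of mouse NSP cells, an abbreviation commonly used for neural stem and progenitor cells, grown from dissociated brains of E12.5 embryos. All cultures were split and infected overnight with a lentivirus, and RNA was taken 6 days later. In 3 samples the virus expressed a control (CTL) shRNA, and in 3 it expressed a shRNA against REST, a repressor of neuronal genes, so both groups carried a virus and a hairpin. The labels name neither the hairpin sequence nor the share of cells infected, and nothing in them tells whether replicates came from separate cultures. The p-values therefore measure the spread among these 6 arrays, part or all of which may be technical.

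The clustered protocadherins lie side by side in alpha, beta and gamma groups on one mouse chromosome. In the alpha and gamma groups a variable first exon is joined to constant exons shared by the whole group, while each beta gene is a single coding exon of its own. Neurons choose among the variable promoters, with CTCF and cohesin bridging promoters to distant enhancers, and the chosen set gives a neuron a surface identity used in self-avoidance. An enhancer of the alpha group is known to contain an element bound by REST. The non-clustered delta protocadherins are separate genes, each with its own region of expression in the embryonic brain, and they act in cell sorting, axon growth and synapse formation.

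Values are log2 signals per probe set, and a difference is REST shRNA minus control shRNA on that scale. The targeted gene, Rest, read 8.92, 8.75 and 8.90 on control arrays 1 to 3 and 8.63, 7.70 and 8.20 on REST shRNA arrays 1 to 3, a level of 62.5% of control, and its other 3 probe sets were also lower. The Rest difference of -0.68 became -0.44 when REST shRNA array 2 was left out and -0.91 when array 1 was. In a limma fit over all genes, 0 genes were called at an adjusted p under 0.05 (0% of genes). At an unadjusted p under 0.05, 195 genes (1.07%) were lower and 323 (1.78%) higher. Together these are fewer than the share of 0.05 expected at that threshold if no gene differed. All 12 neural progenitor markers had a mean above 3.24, the highest signal among 27 bacterial control probe sets, used here as the background level, against 3 of 10 microglia, 4 of 10 endothelial and mural and 5 of 10 fibroblast and meningeal markers. Neuron and astrocyte markers were also above background, 12 of 12 in each list, beside 76% of all genes. Markers listed for several neural cell types were thus read, but the cell types in the cultures were not counted. In such bulk samples fewer cells of a type and less RNA per cell cannot be told apart.

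The Pcdhb genes as a group did not read to one side. Of the 22 genes, 12 were lower and 10 higher in the REST shRNA arrays, or 54.5% lower beside 42.8% of all genes, with a median difference of -0.08 beside 0.04 over all genes. None was called. At an unadjusted p under 0.05, 1 was lower, where 1.07% of all genes were, and 0 were higher, where 1.78% of all genes were. The groups did not overlap for 2 genes, both lower (Pcdhb22 and Pcdhb4), where 2.65% of all genes were lower without overlap. The groups did not overlap for 0 genes in the higher direction, against 4.91% of all genes. Of the 22 genes 18 had a mean above background, beside 76% of all genes, and Pcdhb1, Pcdhb4, Pcdhb6 and Pcdhb8 did not.

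The beta genes read differently from one REST shRNA array to the next. REST shRNA array 1 was the highest of the 3 and array 2 the lowest for 14 of the 22 genes, a pattern that 17.6% of all genes had. Array 1 was the highest for 16 of the 22, beside 27.8% of all genes, and array 2 the lowest for 17, beside 41.9%. The other protocadherins had the order too, though less often. Of those 13 genes, array 1 was the highest for 6, array 2 the lowest for 7, and both held for 4 (30.8%). The mean of 12 astrocyte markers was 9.92, 8.06 and 9.75 on REST shRNA arrays 1, 2 and 3 against 9.60 to 9.90 in control. Its markers did not all have this order, and Gfap, Apoe, S100b, Sox9 and Slc1a2 were highest on array 3. The mean of 12 neural progenitor markers had the order too, at 10.07, 9.85 and 9.96. Means of oligodendrocyte lineage and neuron markers were also lowest on array 2, but highest on array 3. The part of these cell types in the beta readings was not tested. In pair 1 (the arrays of both groups with replicate number 1) 19 of the 22 genes were higher with REST shRNA, with a median difference of 0.28. In pair 2, 20 of the 22 were lower, with a median of -0.68, and in pair 3, 12 were higher and 10 lower, with a median of 0.14. Over all genes the medians of the same pairs were 0.01, -0.01 and 0.11. The SD of the REST shRNA arrays exceeded that of the control arrays in 19 of the 22 genes, beside 66.6% of all genes. Among genes above background it did so in 18 of 18 Pcdhb genes, beside 68.9% of all such genes. The median SD over the 22 genes was 0.23 in control and 0.60 in REST shRNA, beside 0.19 and 0.28 over all genes. Neighbouring genes on a shared cluster and paralogous probes are not independent, so these counts describe one cluster on 6 arrays.

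**Figure D1:**
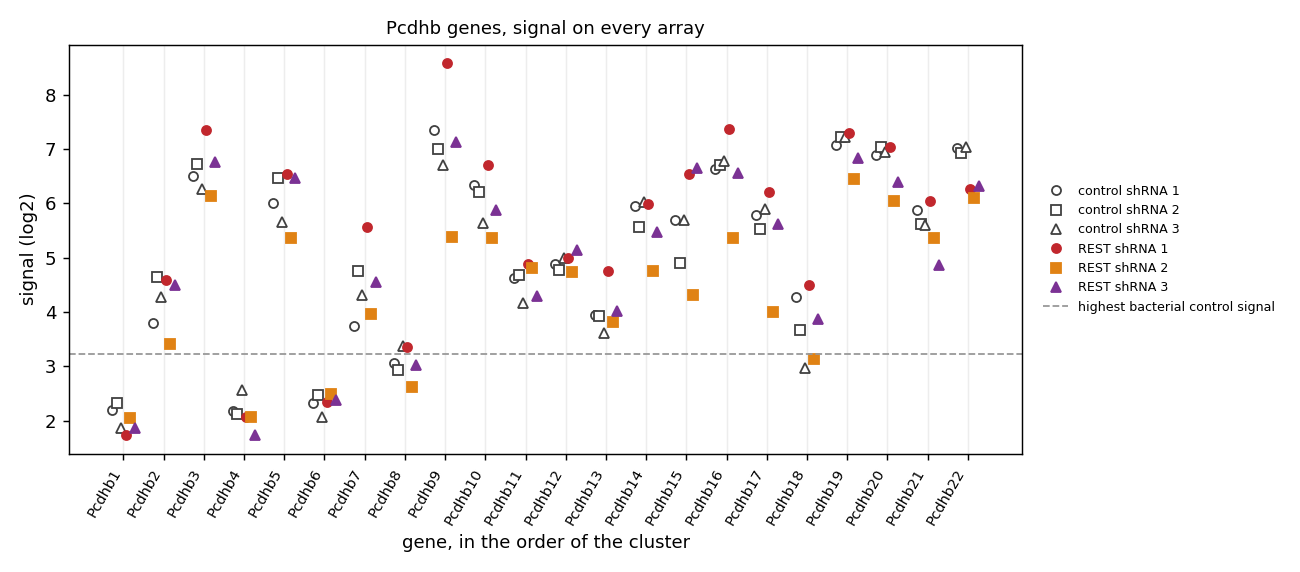
Log2 signal of the 22 Pcdhb genes (y axis) on each array, with genes on the x axis in their order along the cluster, open symbols for control shRNA, filled symbols for REST shRNA, and the dashed line at the highest bacterial control signal, 3.24. REST shRNA array 1 stands at the top and array 2 at the bottom for most genes above the line, while Pcdhb22 has all 3 REST shRNA arrays below all 3 control arrays.

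Pcdhb9 showed the widest spread. It read 7.35, 6.998 and 6.71 on control arrays 1 to 3 and 8.58, 5.39 and 7.12 on REST shRNA arrays 1 to 3. Array 1 of the REST shRNA group lay above every control and array 2 below every control, so the difference of 0.01 ± 0.74 (SE) averages opposite readings. Leaving out the first of these gave -0.76, and leaving out the second gave 0.83. Pcdhb7, the beta gene above background with the largest positive difference, read 3.75, 4.75 and 4.32 in control and 5.56, 3.97 and 4.55 in REST shRNA, a difference of 0.42 ± 0.44 (SE). Only REST shRNA array 1 lay above the controls, and without it the difference was -0.01.

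Pcdhb19 and Pcdhb20, near one end of the cluster, had tight control values and a graded REST shRNA group. Pcdhb20 read 6.89, 7.03 and 6.94 in control and 7.05, 6.04 and 6.40 in REST shRNA, a difference of -0.46 ± 0.26 (SE). Array 1 lay just above the highest control, and arrays 2 and 3 lay below every control. Pcdhb19 read 7.07, 7.23 and 7.22 in control and 7.29, 6.46 and 6.83 in REST shRNA, with the same order of arrays and a difference of -0.31 ± 0.23 (SE). Pcdhb13 read 3.94, 3.92 and 3.61 in control and 4.76, 3.82 and 4.02 in REST shRNA, a difference of 0.38 ± 0.27 (SE), with array 2 among the controls. These differences kept their sign when any 1 array was left out, but their size depended on single arrays of the REST shRNA group. Without array 1 they were -0.73 for Pcdhb20, -0.53 for Pcdhb19 and 0.09 for Pcdhb13. Without array 2 they were -0.23, -0.11 and 0.56 in the same order. The adjusted p of these genes in limma was 1.00.

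Pcdhb16 and Pcdhb17 had the same order of arrays. Pcdhb16 read 6.64, 6.71 and 6.79 in control and 7.38, 5.37 and 6.56 in REST shRNA, so that an SD of 0.08 in control stood beside one of 1.013 in REST shRNA. Pcdhb17 read 5.79, 5.54 and 5.91 in control and 6.22, 3.999 and 5.63 in REST shRNA. For both genes array 1 was above and array 2 below every control, and their differences were -0.28 ± 0.47 (SE) and -0.46 ± 0.53 (SE). Pcdhb3 read 6.51, 6.73 and 6.26 in control and 7.36, 6.14 and 6.76 in REST shRNA, again with array 1 above and array 2 below every control. Pcdhb2, Pcdhb5, Pcdhb10 and Pcdhb18 had the same order of REST shRNA arrays, with differences of -0.07, 0.08, -0.08 and 0.20.

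Of the 18 Pcdhb genes above background, 5 did not have REST shRNA array 1 highest and array 2 lowest: Pcdhb11, Pcdhb12, Pcdhb15, Pcdhb21 and Pcdhb22. These 5 were picked out with their values known. Pcdhb12 differed by 0.08 ± 0.16 (SE), at 4.88, 4.78 and 4.99 in control and 4.998, 4.74 and 5.15 in REST shRNA. Pcdhb11 read 4.63, 4.69 and 4.17 in control and 4.89, 4.81 and 4.29 in REST shRNA, so that array 3 was lowest in both groups. Pcdhb15 had array 2 far below, at 4.32 against 6.54 and 6.65 on REST shRNA arrays 1 and 3, with controls at 5.70, 4.90 and 5.70. Pcdhb21 was lowest on array 3, at 6.04, 5.37 and 4.86 in REST shRNA against 5.88, 5.62 and 5.61 in control.

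Pcdhb22, the last gene of the cluster, was the one beta gene above background whose groups did not overlap. It read 7.02, 6.93 and 7.05 on control arrays 1 to 3 and 6.26, 6.09 and 6.33 on REST shRNA arrays 1 to 3. Within each group the 3 arrays lay close together, with an SD of 0.06 in control and 0.12 in REST shRNA. The difference was -0.77 (95% CI -1.11 to -0.44), a level of 58.5% of control, and it was -0.76, -0.84 and -0.72 in pairs 1, 2 and 3. It still missed the threshold over all genes (limma adjusted p = 0.884). An exact two-sided permutation test gave 0.1, the least p this number of arrays can reach. Every gene without overlap gets that p, so it adds nothing to the lack of overlap. The adjusted p ranged from 0.351 with array weights to 1.00 over the alternatives, and the difference from -0.82 to -0.71.

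Signals below background carry little about the remaining beta genes. Pcdhb4 read 2.18, 2.12 and 2.56 in control and 2.07, 2.07 and 1.74 in REST shRNA, without overlap but under the bacterial controls on every array, and its difference was -0.33 ± 0.19 (SE). Leaving out array 3 of the control group gave -0.19, and leaving out array 3 of the REST shRNA group gave -0.22. Pcdhb1 read 2.20, 2.32 and 1.87 in control and 1.74, 2.04 and 1.87 in REST shRNA. A second probe set of Pcdhb4, also below background, differed by -0.02.

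Beta genes are similar in sequence, and probe sets of one gene did not always read alike. Pcdhb14 differed by -0.44 with a probe set whose probes can match several transcripts, and by 0.28 with its other probe set. Pcdhb15 differed by 0.40 with a probe set of the same kind, and by -0.33 with another probe set, whose mean was below background. The 3 probe sets of Pcdhb16 differed by -0.28, -0.32 and -0.00, and those of Pcdhb21 by -0.28 and -0.14. How far probes of one beta gene also bind RNA of another was not tested.

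Of the 13 other protocadherins 9 were lower and 4 higher, or 69.2% lower beside 42.8% of all genes, with a median difference of -0.25. A mean above background was found for 12 of the 13, beside 76% of all genes. None was called, and 2 were lower at an unadjusted p under 0.05 (Pcdh17 and Pcdh10), beside 1.07% of all genes. The groups did not overlap for 3 genes, all lower (Pcdh17, Pcdh9 and Pcdh15), beside 2.65% of all genes lower and 4.91% higher without overlap. In all 3 pairs 6 of the 13 were lower, beside 8.77% of all genes, and 0 were higher, beside 13.6%. The median SD over these genes was 0.21 in control and 0.20 in REST shRNA.

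**Figure D2:**
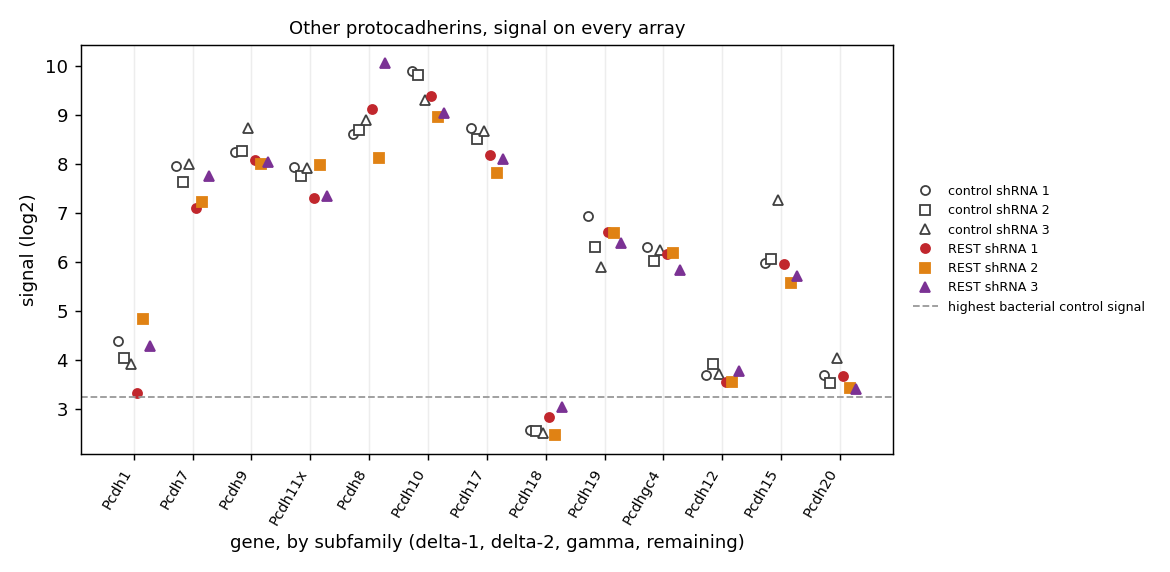
Log2 signal of the 13 other protocadherins (y axis) on each array, with genes on the x axis ordered as delta-1, delta-2, gamma and remaining members, symbols as for the Pcdhb genes, and the dashed line at 3.24. Pcdh17, Pcdh9 and Pcdh15 have all REST shRNA arrays below the control arrays, and Pcdh8 spreads widely in the REST shRNA group.

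Pcdh17 and Pcdh10 belong to the delta-2 subfamily, whose cytoplasmic tails bind the WAVE actin regulator. Pcdh17, which takes part in synapse assembly in corticobasal circuits, read 8.74, 8.50 and 8.66 on control arrays 1 to 3 and 8.19, 7.82 and 8.10 on REST shRNA arrays 1 to 3. The groups did not overlap, and the difference was -0.60 (95% CI -0.99 to -0.20), a level of 66.1% of control (limma adjusted p = 1.00 over all genes). Its second probe set read 6.48, 6.87 and 6.35 in control and 5.21, 5.81 and 5.63 in REST shRNA, again without overlap, and differed by -1.02 (95% CI -1.55 to -0.48). Over all probe sets, 3.89% were lower without overlap and 1.93% were lower at an unadjusted p under 0.05. Both probe sets were lower in each of the 3 pairs.

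Pcdh10, also called OL-protocadherin, guides axons through the ventral forebrain. It read 9.88, 9.81 and 9.30 in control and 9.39, 8.96 and 9.03 in REST shRNA, where REST shRNA array 1 overlapped control array 3. The difference was -0.54 (95% CI -1.06 to -0.02), a level of 68.8% of control, with a limma adjusted p of 1.00. All 5 other probe sets of Pcdh10 were lower too, by -0.59, -0.55, -0.17, -0.56 and -0.26, and every one of the 6 was lower in each pair. Probe sets of one gene share the same RNA samples and are not replicates.

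The other delta-2 genes did not share this. Pcdh8, known as arcadlin for its induction by neuronal activity, read 8.60, 8.69 and 8.89 in control and 9.11, 8.13 and 10.05 in REST shRNA. Arrays 1 and 3 lay above the controls and array 2 below them, and the difference of 0.37 ± 0.45 (SE) became -0.11 without REST shRNA array 3. A second probe set of Pcdh8 had the same order, at 4.59, 3.15 and 5.54 in REST shRNA against 3.97, 4.39 and 4.39 in control, and differed by 0.18. Pcdh19, a gene mutated in an X-linked epilepsy, differed by 0.15 ± 0.27 (SE), with other probe sets at -0.08 and 0.01, and Pcdh18 was below background on every array.

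Promoter windows of 3 delta-2 genes are shown because 2 of them, Pcdh17 and Pcdh10, read lower together while Pcdh8 did not. RefSeq windows (GRCm38.p6, from 250 bases before to 50 after the start of transcription) were at hand for 9 of the 35 genes, all non-clustered. Capitals mark the CCAAT box, searched as CCAAT on both strands. The windows are chr14:84443313-84443612 on the plus strand for Pcdh17, chr3:45378148-45378447 on the plus strand for Pcdh10 and chr14:79771263-79771562 on the minus strand for Pcdh8.
Pcdh17: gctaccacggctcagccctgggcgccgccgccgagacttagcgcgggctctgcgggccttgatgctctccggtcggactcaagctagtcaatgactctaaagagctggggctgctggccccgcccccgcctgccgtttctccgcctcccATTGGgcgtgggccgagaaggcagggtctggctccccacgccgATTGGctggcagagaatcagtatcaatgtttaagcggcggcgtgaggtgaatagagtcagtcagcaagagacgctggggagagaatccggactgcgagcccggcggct
Pcdh10: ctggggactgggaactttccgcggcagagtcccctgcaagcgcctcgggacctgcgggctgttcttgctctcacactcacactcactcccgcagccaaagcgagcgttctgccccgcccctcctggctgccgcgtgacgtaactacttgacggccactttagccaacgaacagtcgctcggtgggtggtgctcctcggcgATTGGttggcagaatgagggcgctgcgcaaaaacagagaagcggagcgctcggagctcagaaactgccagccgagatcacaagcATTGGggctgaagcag
Pcdh8: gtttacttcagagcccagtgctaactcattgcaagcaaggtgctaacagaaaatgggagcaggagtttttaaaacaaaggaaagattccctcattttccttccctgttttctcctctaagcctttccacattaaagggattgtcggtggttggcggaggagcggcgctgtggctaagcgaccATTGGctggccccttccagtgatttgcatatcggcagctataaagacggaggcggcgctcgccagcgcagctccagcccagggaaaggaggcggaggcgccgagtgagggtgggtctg

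The CCAAT box occurred 2 times in the Pcdh17 window, 2 times in that of Pcdh10 and 1 time in that of Pcdh8, with no overlap with another motif searched. It was present in windows of 8 of the 9 genes (all but Pcdh7), beside 37.4% of all 32851 windows. The GC box GGGCGG, on either strand, occurred 1 time each in Pcdh17 and Pcdh10 and 0 times in Pcdh8, beside 35.7% of all windows with a match. It also occurred 1 time each in Pcdh18 and Pcdh19, whose differences were positive. In Pcdh7, Pcdh9 and Pcdh15, whose differences were negative, it occurred 0 times. The TATA box TATAAA was found 1 time in Pcdh8 and in neither of the other windows shown, beside 13.6% of all windows. Pcdh15, which read lower, also held it 1 time. CG dinucleotides numbered 26 in Pcdh17, 24 in Pcdh10 and 14 in Pcdh8, against a median of 7 over all windows. They numbered 23 in Pcdh18, 18 in Pcdh19 and 11 in Pcdh7. Whether any of these letters bear on the readings was not tested. The letters GGACAG, the right-hand part of the RE1 element bound by REST, were found on either strand in 0 of the 10 member windows, beside 22.2% of all windows. That says only that these letters are not in these windows.

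The delta-1 genes carry a site for protein phosphatase 1 in their tails. Pcdh7, which acts in retinal axon and dendrite growth, read 7.96, 7.62 and 7.99 in control and 7.10, 7.22 and 7.75 in REST shRNA. REST shRNA array 3 overlapped the controls, and the difference was -0.50 ± 0.22 (SE), with other probe sets at -0.31 and -0.69. Pcdh9 read 8.25, 8.25 and 8.73 in control and 8.07, 8.01 and 8.04 in REST shRNA. The REST shRNA arrays were nearly level, below every control, and the difference was -0.37 ± 0.18 (SE), with other probe sets at -0.26 and -0.23, each of them higher in pair 1. Without control array 3 the difference of Pcdh9 was -0.21. Pcdh11x differed by -0.33 ± 0.22 (SE), with REST shRNA array 2 above the controls at 7.97, and Pcdh1 by 0.03 ± 0.38 (SE).

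Among the remaining genes, Pcdh15, a tip-link protein of inner ear hair cells, had the largest negative difference. It read 5.98, 6.05 and 7.27 in control and 5.95, 5.56 and 5.72 in REST shRNA. Control array 3 stood far above the other controls, and without it the difference of -0.69 ± 0.36 (SE) became -0.27. A second probe set differed by -0.62, and another, below background, by 0.40. Pcdh12, an adhesion protein of endothelial cells, differed by -0.15 ± 0.15 (SE), with other probe sets at -0.32 and, below background, 0.23. Pcdh20 differed by -0.25 ± 0.18 (SE), and Pcdhgc4, the one gamma gene with a probe set of its own, by -0.13 ± 0.17 (SE).

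**Figure D3:**
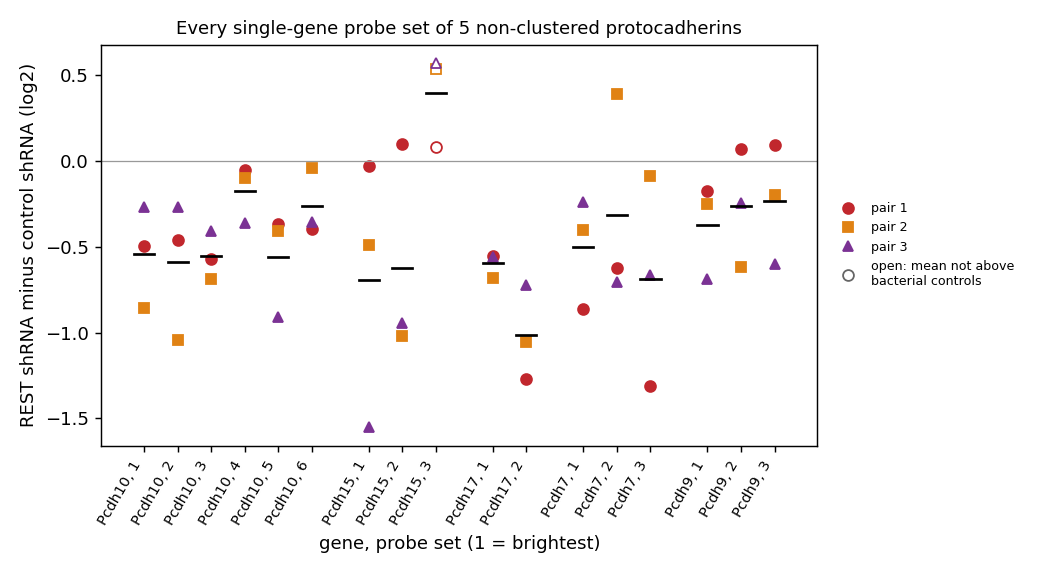
REST shRNA minus control shRNA on the log2 scale (y axis) in each pair of arrays for every single-gene probe set of Pcdh7, Pcdh9, Pcdh10, Pcdh15 and Pcdh17 (x axis, brightest probe set first), with bars at the mean and open symbols for a mean not above background. All points of Pcdh10 and Pcdh17 lie below 0, while those of the other 3 genes do not all.

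The alpha cluster was read only by 6 probe sets annotated to several alpha genes, which the choice of members left out. The 3 annotated to all 14 alpha genes read higher in REST shRNA. The first read 7.27, 7.51 and 6.82 on control arrays 1 to 3 and 7.52, 8.28 and 7.53 on REST shRNA arrays 1 to 3, a difference of 0.57 ± 0.28 (SE). The second read 6.90, 6.93 and 6.42 in control and 7.09, 7.44 and 7.07 in REST shRNA, a difference of 0.45 ± 0.21 (SE). The third read 6.50, 6.60 and 5.91 in control and 6.60, 7.40 and 6.69 in REST shRNA, a difference of 0.56 ± 0.29 (SE). REST shRNA arrays lay above all controls for the first and second, beside 4.35% of all probe sets, and for the third REST shRNA array 1 reached no higher than control array 2. All 3 were higher in every pair, the smallest difference being 0.10 in pair 1 for the third.

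None of these was called (limma adjusted p = 1.00 over all 45101 probe sets), and they share RNA of the same genes, so they count as one reading. Their median difference of 0.56 was 0.32 without REST shRNA array 2, 0.35 without control array 3 and 0.30 with array weights. The other 3 probe sets, each annotated to 9 alpha genes, differed by 0.02, 0.18 and 0.02, the last of them below background. REST shRNA array 2, the lowest array of the beta cluster, was the highest array for the 3 probe sets of all alpha genes.

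**Figure D4:**
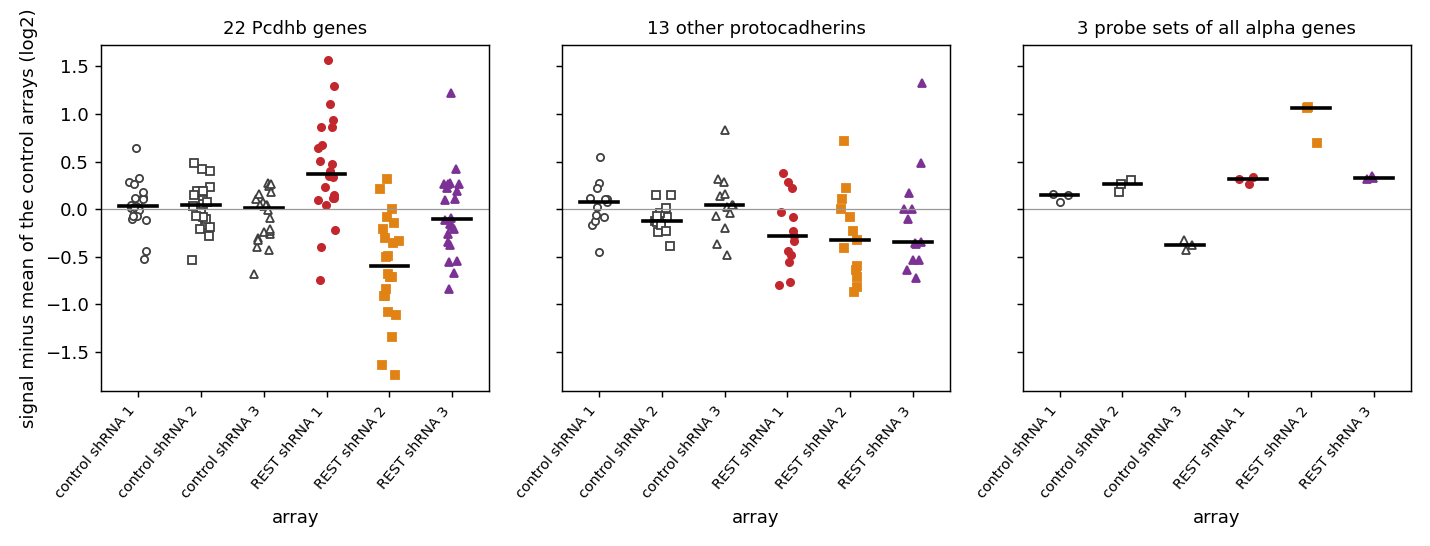
Signal minus the mean of the control arrays on the log2 scale (y axis) on each array (x axis) for the 22 Pcdhb genes, the 13 other protocadherins and the 3 probe sets of all alpha genes, with black bars at the median. REST shRNA arrays 1, 2 and 3 have medians of 0.37, -0.60 and -0.10 for Pcdhb, and -0.28, -0.33 and -0.34 for the other protocadherins. The last 3 medians pool unlike subfamilies, whose own medians are not drawn. On the same arrays these are -0.66, -0.15 and -0.24 for the 4 delta-1 genes. For the 5 delta-2 genes they are 0.23, -0.60 and 0.003, near those of Pcdhb.

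Set against the other protocadherins, the beta cluster was not shown to differ in its mean response. The Pcdhb median minus that of the other protocadherins was 0.17, less than the SD of 0.50 of the same quantity over the 3 pairs, where it was 0.45, -0.43 and 0.41. Leaving out REST shRNA array 1 gave -0.08 and leaving out array 2 gave 0.50, so its sign rests on which of these arrays is kept. The median of the beta genes alone was -0.29 and 0.18 in the same settings. The number of Pcdhb genes with a lower mean was 17 and 7 there. The number lower without overlap was 7 when REST shRNA array 1 was left out. Groups of fewer arrays overlap less easily, and the share over all genes was not counted in that setting. The median of the other protocadherins remained negative in each of these settings, at -0.21 and -0.31.

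**Figure D5:**
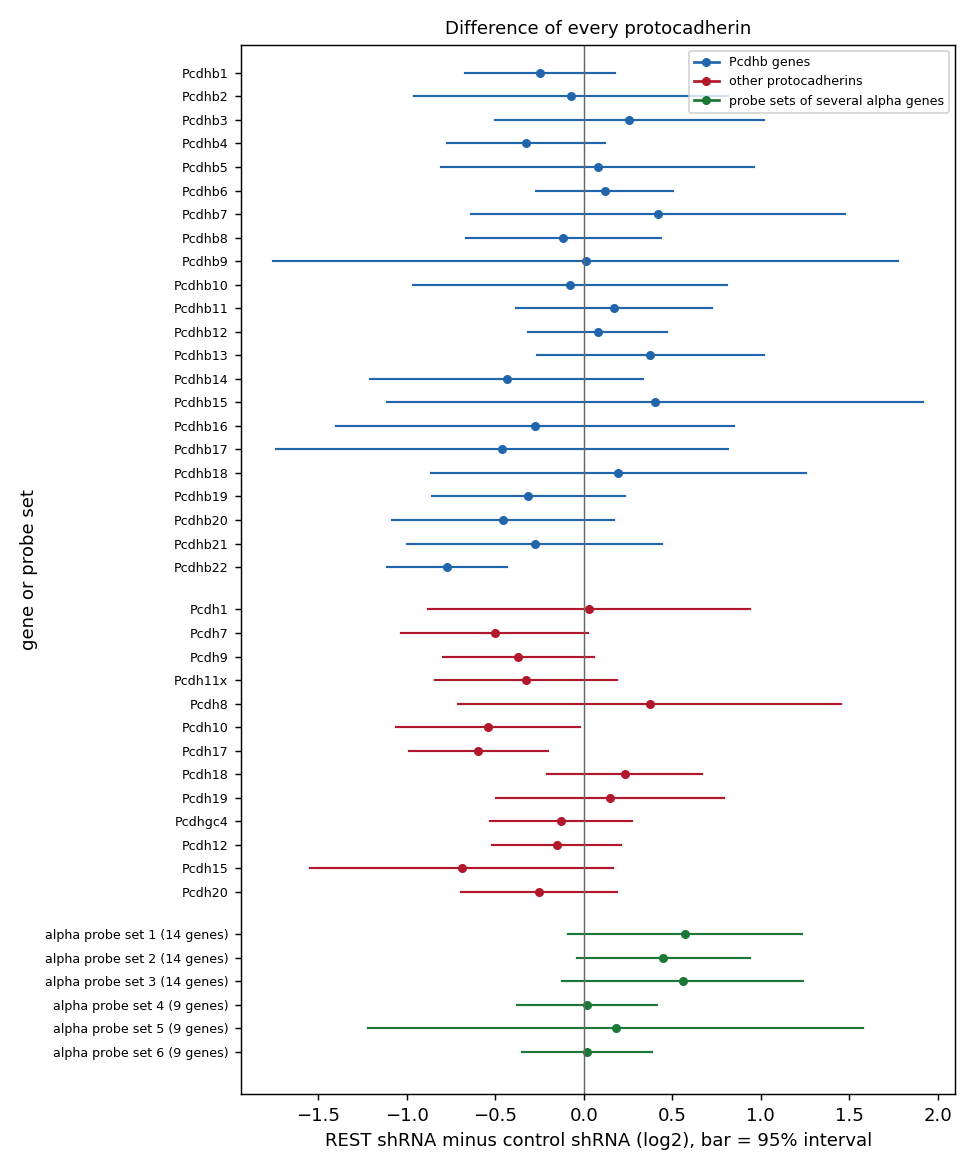
REST shRNA minus control shRNA on the log2 scale (x axis), with 95% intervals from limma, for the 22 Pcdhb genes in cluster order, the 13 other protocadherins and the 6 probe sets of several alpha genes (y axis). Intervals that leave out 0 belong to Pcdhb22, Pcdh10 and Pcdh17, and the widest is that of Pcdhb9.

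Genes beside the clusters gave a local comparison. Of 12 measured genes that flank the 3 clusters or lie between them in the RefSeq order, 10 were higher and 2 lower in REST shRNA. Their median was 0.13, beside 10411 of 18194 genes higher and a median of 0.04 over all genes. The 2 lower genes, Dnd1 and Slc25a2, had means below background. Taf7, a subunit of the general factor TFIID that lies between the beta and gamma clusters, differed by 0.44 ± 0.30 (SE), and Diaph1, an actin-nucleating formin after the gamma cluster, by 0.04 ± 0.18 (SE). Taf7 read 5.53, 5.52 and 5.91 on REST shRNA arrays 1 to 3, without the gap between arrays 1 and 2 seen in most beta genes. Fchsd1, beyond the gamma cluster, did show a low array 2, at 5.94, 4.87 and 6.24 against 5.36, 5.40 and 5.51 in control. Rell2 likewise read 4.79, 3.90 and 4.65 on REST shRNA arrays 1 to 3. Zmat2 and Arap3 were also lowest on array 2 of the REST shRNA group. Wdr55, Hars, Hars2 and Diaph1 were instead highest on it. The flanking genes were listed, and these examples chosen, after values were seen.

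Known regulators of the clusters were measured for 22 of 24 listed genes, with 0 called in either direction and a median difference of -0.06. Tet1, which oxidises methylated cytosine, differed by -0.85 ± 0.28 (SE), and Rest by -0.68 ± 0.25 (SE). Of 24 partners and effectors 21 were measured, with 0 called and a median of 0.03, among them Adam10, the protease that sheds protocadherin ectodomains, at -0.27 ± 0.17 (SE) and Axin1 at 0.23 ± 0.15 (SE). In the wider cadherin superfamily 41 of 44 genes were measured, with 0 called and a median of 0.09. Of these, 27 were higher and 14 lower, beside 10411 of 18194 genes higher over all genes. A mean above background was found for 27 of the 41, beside 76% of all genes. Celsr3, a seven-pass cadherin of axon tracts with a known REST site, differed by 1.77 ± 0.27 (SE), and Clstn2, a calsyntenin of the postsynaptic membrane, by 1.15 ± 0.32 (SE).

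Markers of other cell types also differed between arrays. All 12 astrocyte markers had a lower mean in REST shRNA, beside 42.8% of all genes, but most were not lower in every pair. Gfap, Apoe and Gjb6 were higher in pairs 1 and 3, while Slc1a2, Fgfr3 and Aqp4 were lower in all 3 pairs. Array 2 was the lowest REST shRNA array for all of them but Fgfr3 and Slc4a4, beside 41.9% of all genes. The gap was uneven, with Gfap at 11.11, 5.58 and 11.73 on REST shRNA arrays 1 to 3 and Sox9 at 10.69, 10.55 and 11.02. Oligodendrocyte lineage markers (11 measured) read 9.25, 8.08 and 9.74 on REST shRNA arrays 1 to 3 and 8.55 to 9.05 in control. Neuron markers (12 measured, 9 higher) read 8.14, 7.95 and 8.43 in REST shRNA and 7.26 to 7.63 in control, and neural progenitor markers (12 measured, 10 lower) read 10.07, 9.85 and 9.96 against 10.10 to 10.15. Their part in the protocadherin readings was not tested.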

How the data were processed

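Expression was measured on 6 one-colour Affymetrix arrays, 3 per group. RNA was isolated with Trizol and hybridised as biotin-labelled cDNA, per the labels' protocols. The deposited table holds log2 values per probe set, a unit read from their range of 1.00 to 14.2; how the authors corrected and normalized them is not given in the sources used here. Values sorted within each array lay within 0.112 of their mean over arrays, and no scaling was added. Such a table gives differences relative to other genes of the array, and depth has no counterpart beyond the number of arrays.

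Gene names came from the annotation of the platform, checked against RefSeq by gene number: 34958 had 1 gene, 932 several and 9211 were unnamed here. Groups and replicate numbers came from the titles. Differences were fitted with limma 3.58.1 under R 4.3.3 (lmFit, eBayes, group only, two-sided, Benjamini-Hochberg over all genes, call at 0.05), with no filter on dim genes, and was tested on simulated data. Deviations from group means correlated at 0.108, 0.365 and 0.504 for arrays numbered 1, 2 and 3, all above 0.1, and equal numbers were treated as pairs, although control array 1 correlated better (0.268) with REST shRNA array 2.

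Members and lists were chosen with earlier results of these data known. Named genes, set by rule, were Rest; among Pcdhb and the others separately the 5 with the smallest p, the 3 brightest and both extremes above background; 2 per related list; and members whose probe sets differ in sign. Genes outside it, the neighbours, the motifs and the leaving out of both arrays of a number were added after values were seen. Comparison of beta protein sequences was not run. Alternatives were the replicate block, scaling, filters on dim genes, the choice of probe set, variance models, array weights and leaving out arrays.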

Additional observations from a re-analysis of the deposited data

How the results depend on the processing

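No alternative called any gene: the count over all genes, and over the protocadherins, was 0 in each of the 19 alternatives run. With the replicate number as a block (replicate block, a paired fit) 0 genes were called, so it changed no call. In complete pairs such a block cannot alter a difference. The medians of -0.08 for Pcdhb and -0.25 for the other protocadherins are therefore the same by construction. The number of Pcdhb genes lower without overlap, 2, was 1 with arrays centred on their medians, 1 with each filter on dim genes, which leaves 18 Pcdhb genes, 1 with the dimmest probe set, and 7 without both arrays numbered 1. Leaving out 1 array gave 2 to 7 for it and 7 to 17 for the number with a lower mean, main value 12. With fewer arrays a lack of overlap is easier to reach, and its share over all genes was not counted in these settings. Leaving out 1 array gave -0.29 to 0.18 for the Pcdhb median, -0.37 to -0.19 for that of the others and -0.08 to 0.50 for their difference. Array weights turned the Pcdhb median to 0.09, and the cause was not tested. Leaving out 1 array gave -0.76 to 0.83 for Pcdhb9 (main value 0.01), -0.014 to 0.78 for Pcdhb7 and -0.11 to 0.86 for Pcdh8. Pcdhb9 also turned to -0.60 without both arrays numbered 1 and to -0.19 without both numbered 3. Pcdhb7 turned to -0.28 without both numbered 1, Pcdh8 to -0.025 without both numbered 3, and Pcdh15 to 0.40 with its dimmest probe set. Rest, Pcdhb22, Pcdhb20, Pcdhb19, Pcdh17, Pcdh10, Pcdh7 and Pcdh9 were lower in all 19, and Pcdhb4 and Pcdhb1 in the 17 that kept them. Several settings cannot change the difference of a gene, namely the block, the filters on dim genes and the trend variance model. For a gene with 1 probe set, such as Pcdhb22, the choice of probe set cannot either. Centring shifts all differences alike. The 3 arrays per group, and signals near 3.24, limit what can be told apart.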
